A study of Homo sapiens with 4 samples.

Results

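The genes described here are the human enzymes that write and remove cytosine methylation, chosen by name: DNMT1, UHRF1, DNMT3A, DNMT3B, DNMT3L, TET1, TET2 and TET3, 8 genes in all. Probes were taken by the platform's gene annotation, every probe of each gene. It named 17 of the 47323 probes for 7 of these genes, out of 19950 genes in the whole data set. TET3 had no probe under its symbol in that annotation and is not described further. RNA came from H9 (WA09), an established human embryonic stem cell line, at 4 stages of culture. Passage numbers were in the 40s for P1, in the 100s for P2, in the 200s for P3 and in the 300s for P4. The labels name no treatment and no genetic change, and all groups derive from the same line. Each group was measured on 1 Illumina bead array, so a difference compares 2 arrays, has no replicate check and carries no p-value. All groups being bulk RNA, fewer cells of a type and less RNA per cell cannot be told apart.

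Methyl groups on cytosine, mostly at CG dinucleotides, are copied to the new strand after replication by DNMT1, which UHRF1 brings to half-methylated sites. DNMT3A and DNMT3B place methyl groups on unmethylated DNA, and DNMT3L, a relative without catalytic activity, stimulates them. TET1, TET2 and TET3 oxidise methylated cytosine, the first step of its removal. Human embryonic stem cells are known for high DNMT3B and TET1, and both decline when the cells differentiate.

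Over the 4 arrays, 5 of the 7 genes with a probe were detected, each on all 4 arrays. Detection means a quantile-normalized intensity of at least 38.4, the 60th percentile of all values. UHRF1, DNMT1 and the brightest DNMT3A probe, which lay near the limit, read highest in P2. TET1 read highest in P1 on all 3 of its probes, and the 3 brightest DNMT3B probes read highest in P4. Another DNMT3B probe read higher in each later group and in P4 stood 2.66-fold above P1. DNMT3L and TET2 stayed under the detection limit on every array.

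Promoter sequences are given for UHRF1 and DNMT1, whose highest level fell on the same array, and for TET1, which was lowest on that array. Each is RefSeq's window of 250 bases before to 50 after a start site (build GRCh38.p14), read in the direction of the gene. Where several windows were listed, the nearest to the annotated 5′ end of the gene was used. Capitals mark 2 kinds of motif, searched on both strands and not overlapping in these windows. The first is an E2F site, spelled TTTCCCGC, TTTCGCGC, TTTGCCGC or TTTGGCGC; E2F factors control many genes of DNA replication. The second is the CCAAT box, spelled CCAAT, a common promoter element. The windows are UHRF1 at chr19:4909251-4909550 (plus strand), DNMT1 at chr19:10194904-10195203 (minus strand) and TET1 at chr10:68560087-68560386 (plus strand).
UHRF1: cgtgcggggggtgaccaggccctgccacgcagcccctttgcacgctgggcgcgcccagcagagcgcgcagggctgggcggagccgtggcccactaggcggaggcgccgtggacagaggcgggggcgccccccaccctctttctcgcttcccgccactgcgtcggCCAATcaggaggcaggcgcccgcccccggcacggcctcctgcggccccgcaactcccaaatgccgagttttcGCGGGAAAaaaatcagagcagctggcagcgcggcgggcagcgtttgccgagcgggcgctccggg
DNMT1: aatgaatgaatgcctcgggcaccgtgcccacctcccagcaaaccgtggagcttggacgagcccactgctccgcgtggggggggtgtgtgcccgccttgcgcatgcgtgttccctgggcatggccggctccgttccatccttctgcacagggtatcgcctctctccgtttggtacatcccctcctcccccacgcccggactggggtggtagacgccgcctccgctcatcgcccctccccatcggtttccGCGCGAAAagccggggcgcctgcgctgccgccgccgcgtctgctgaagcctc
TET1: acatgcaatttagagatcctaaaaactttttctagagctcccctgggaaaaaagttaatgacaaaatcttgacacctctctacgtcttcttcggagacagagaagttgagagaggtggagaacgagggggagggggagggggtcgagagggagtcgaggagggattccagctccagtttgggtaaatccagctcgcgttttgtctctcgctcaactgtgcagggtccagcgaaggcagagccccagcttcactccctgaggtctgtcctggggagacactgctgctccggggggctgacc
The UHRF1 window held 1 E2F word, starting at position -14 from the start site, and 1 CCAAT box at -86. Another window listed for UHRF1 held 1 E2F word and 2 CCAAT boxes, and a further one held neither motif. The DNMT1 window held 1 E2F word at -2 and no CCAAT box. Neither motif was found in the TET1 window, while the 2 other windows listed for TET1 held 2 CCAAT boxes each. Those 2 windows overlap and have 1 of the boxes in common. The brightest DNMT3A probe, near the limit, also read highest in P2, and the gene's window and the 5 others listed for it held neither motif. Of all 35116 windows of this length, 3.31% held an E2F word and 34.6% a CCAAT box. CG dinucleotides, the substrate of these enzymes, numbered 36 in the UHRF1 window, 30 in the DNMT1 window and 10 in the TET1 window, against a median of 14 over all windows. Windows were listed for 7 of the 8 genes, DNMT3L being absent.

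For the maintenance enzymes, the UHRF1 probe detected on all arrays read 1901 (P1), 3726 (P2), 2751 (P3) and 2251 (P4). The level was highest in P2 and smaller in each later group, with P1 the lowest of the 4. P2 was 1.96-fold above P1, a log2 difference of 0.97. In that pair, 4.77% of detected genes had a larger difference in either direction. P4 was 1.66-fold lower than P2 and 1.18-fold higher than P1. The other UHRF1 probe crossed the detection limit in P2 (42.7) and P3 (40.7) and was under it in P1 (22.2) and P4 (8.3). Both probes were thus higher in P2 and P3 than in P1 and P4, the second at a level where background subtraction leaves little signal.

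DNMT1, with a lone probe, read 5692 (P1), 7947 (P2), 6829 (P3) and 7141 (P4). It was lowest in P1 and highest in P2, with P3 and P4 between them. P2 stood 1.40-fold above P1, P3 1.20-fold and P4 1.25-fold. In P2 against P1, 22.7% of detected genes differed by more than DNMT1 did, so its difference was an ordinary one for that pair of arrays. DNMT1 and UHRF1 are transcribed mainly in dividing cells, and a list of 18 S phase genes was set beside them. Of its 16 detected genes, 14 were above 0 in P2 against P1, with a median log2 difference of 0.28 against 0.03 over all detected genes. MCM4 (0.49) and CDC45 (0.49), both parts of the replicative helicase, led the list in that direction, and PCNA (-0.45), the replication clamp, and the transcription factor E2F1 (-0.57) were lower. In P3 and P4 the list's medians were 0.01 and -0.01. In P4 the replication licensing genes CDC6 (-0.53) and CDT1 (0.42) were, with E2F1 (-0.50) and PCNA (-0.30), the members farthest from 0. The part of the S phase genes in the UHRF1 and DNMT1 levels was not tested.

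**Figure D1:**
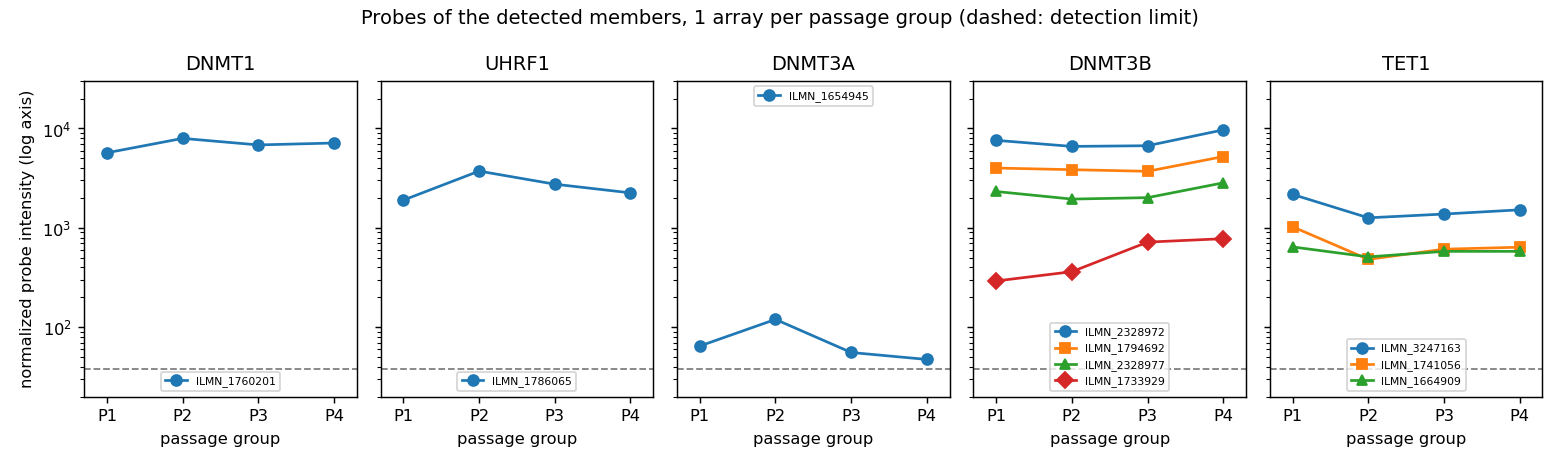
Normalized intensity (log axis) of the 10 probes of DNMT1, UHRF1, DNMT3A, DNMT3B and TET1 that were detected on all 4 arrays, by passage group; each point is 1 array and the dashed line is the detection limit of 38.4. UHRF1 peaks in P2, all 3 TET1 probes are highest in P1, and ILMN_1733929 is the DNMT3B probe that is higher in P3 and P4.

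Of the de novo enzymes, DNMT3B was bright on 3 probes. The brightest, ILMN_2328972, read 7597 (P1), 6601 (P2), 6707 (P3) and 9680 (P4). ILMN_1794692 read 4000 (P1), 3850 (P2), 3708 (P3) and 5219 (P4). ILMN_2328977 read 2323 (P1), 1949 (P2), 2015 (P3) and 2840 (P4). On these probes P2 and P3 were a little under P1, and P4 was above all other groups. The step from P3 to P4 was 1.44-fold, 1.41-fold and 1.41-fold on the 3 probes in that order. On the gene's brightest probe, 9.60% of detected genes had a larger difference between P4 and P3.

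The dimmest detected DNMT3B probe, ILMN_1733929, read 292 (P1), 363 (P2), 719 (P3) and 779 (P4). Its widest step lay between P2 and P3, at 1.98-fold, where the 3 bright probes differed by at most 1.04-fold. P3 was 2.46-fold and P4 2.66-fold above P1 on this probe, which is singled out here after its values were seen. The 4 probes' log2 differences spread over 1.50 in P3 against P1, from -0.21 to 1.30. Among the 2570 genes with at least 2 probes detected on all arrays, 0.428% had a larger spread, and among the 63 with at least 4 such probes 1.59% had. In P4 against P1 the spread was 1.12, and 2.61% of those 2570 genes had probes at least 2-fold apart in their change. All 4 probes are annotated to the same DNMT3B transcript, and where on it each lies was not analysed here. The remaining DNMT3B probe, annotated to another transcript variant, read between -1.4 and 5.5 and was under the limit on all arrays.

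DNMT3B lies on the long arm of chromosome 20, at the end of a run of genes that were higher in late passages. The 12 detected genes on the side of BCL2L1 differed from P1 by medians of 0.61, 1.18 and 1.52 (log2) in P2, P3 and P4. In P4, 9 of the 12 were at least 2-fold higher, where 3.05% of all detected genes were at least 2-fold different in either direction. For the 12 on the other side the medians were 0.03, 0.02 and -0.06, with none at least 2-fold different in P4, although PXMP4 (-0.80), ZNF341 (0.55) and E2F1 (-0.50) lay away from 0 there. The nearest detected genes before DNMT3B were COMMD7, a COMM domain protein, and ASXL1, a chromatin regulator. COMMD7 differed from P1 by 0.69, 1.26 and 1.50 in P2, P3 and P4 on the log2 scale, and ASXL1 by 0.61, 0.51 and 0.71. The nearest after it were MAPRE1, a microtubule end-binding protein, at 0.14, 0.01 and -0.04, and CDK5RAP1, a transfer RNA modifying enzyme, at 0.22, 0.15 and 0.07. The bright DNMT3B probe gave -0.20, -0.18 and 0.35, and ILMN_1733929 gave 0.31, 1.30 and 1.41. The genes before DNMT3B themselves ranged from -0.20 (POFUT1) to 2.11 (CCM2L) in P3 and from -0.19 (POFUT1) to 1.76 (TSPY26P) in P4. POFUT1 alone set the low end in P3, and it read 21738 to 25042, where the arrays' highest deposited values were 28270 to 30159. The next lowest gene in P3, the dim DUSP15 (45.7 to 82), stood at 0.10, above the bright DNMT3B probe (-0.18). DUSP15 was below that probe in P2 (-0.74 against -0.20) and in P4 (-0.16 against 0.35). A list of 21 genes of band 20q11.21 other than DNMT3B had 14 detected. Most of these are also among the 12 genes on the side of BCL2L1, so the list's count is not independent of theirs. Past 2-fold in P4 against P1 were 9 of these 14, all higher, beside 3.05% of all detected genes. The farthest from 0 were HM13 (3.27-fold), which encodes an intramembrane protease, the spindle assembly factor TPX2 (3.20-fold), the kinesin subunit KIF3B (3.09-fold) and PDRG1 (3.01-fold).

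**Figure D2:**
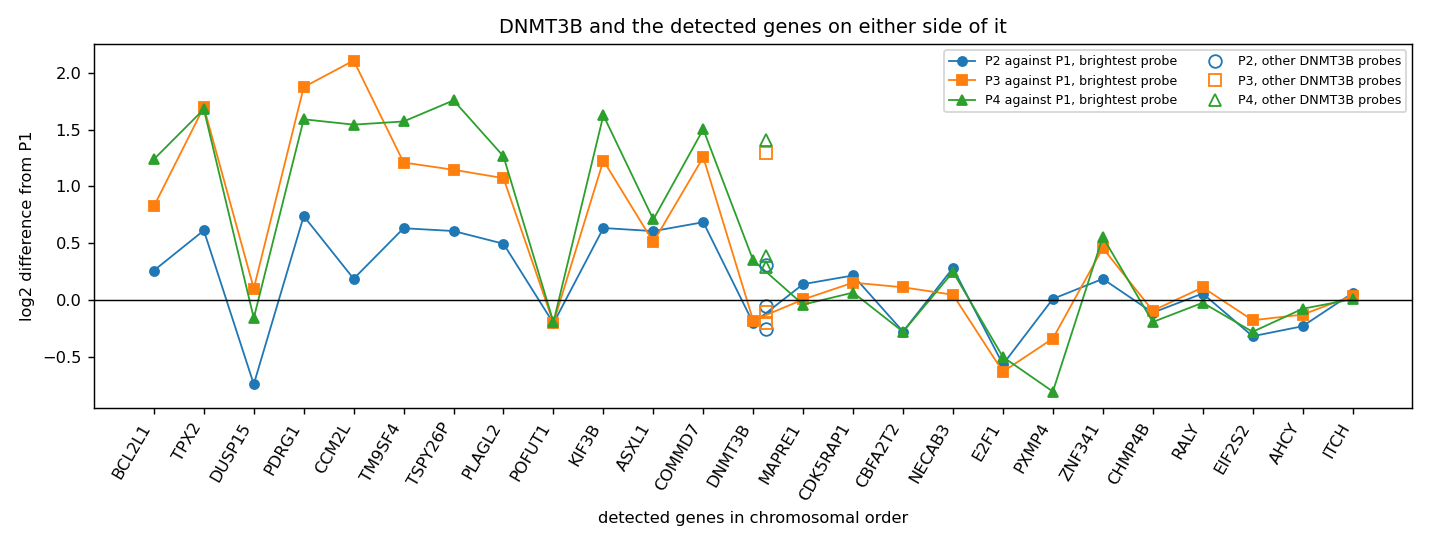
Log2 difference from P1 (vertical axis) of DNMT3B and the 12 detected genes on each side of it in chromosomal order (horizontal axis, equal spacing), by the brightest probe of each gene; open symbols are the 3 other detected DNMT3B probes. In P4, 9 of the 12 genes before DNMT3B lie above 1, and the 12 after it lie between -0.80 (PXMP4) and 0.55 (ZNF341); 1 open DNMT3B symbol in each of P3 and P4 stands above 1.

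DNMT3A was dim. Its brightest probe read 64.8 (P1), 120.1 (P2), 55.8 (P3) and 47.5 (P4), against a detection limit of 38.4. P2 was 1.85-fold above P1, and P3 and P4 were 2.15-fold and 2.53-fold under P2. These were the 2 differences of a gene, over all members and comparisons, that reached 2-fold. They rest on a probe near the limit, and adding 50 to all values instead of flooring them gave log2 differences of -0.69 for P3 and -0.80 for P4 against P2. A second DNMT3A probe was detected only in P4 (48.1, against 23.9 to 29.1 on the other arrays), and the third was below 0 on all arrays. The probes, each annotated to a different DNMT3A transcript variant, did not share an order of the groups. DNMT3L read at most 5.8 and 7.7 on its 2 probes, under the limit throughout, so that no difference between passages could be read for it.

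TET1, the TET enzyme most associated with pluripotent cells, was higher in P1 than in any later group on each of its 3 probes. The brightest, ILMN_3247163, read 2171 (P1), 1263 (P2), 1378 (P3) and 1520 (P4). ILMN_1741056 read 1026 (P1), 482 (P2), 611 (P3) and 639 (P4). ILMN_1664909 read 643 in P1, 511 in P2 and 580 in both P3 and P4. All 3 probes were lowest in P2, and none was back at its P1 level in P4. P2 was 1.72-fold, 2.13-fold and 1.26-fold lower than P1 on the 3 probes, and P4 was 1.43-fold, 1.61-fold and 1.11-fold lower. For the brightest probe, 8.73% of detected genes had a larger difference in P2 against P1 and 16.3% in P4 against P1. P1 enters all 3 of these comparisons, which are therefore not independent of each other. TET2 read between -5.3 and 2.1 on its lone probe and could not be measured.

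Counted by the brightest probe, 0 of the 5 detected members were at least 2-fold different in P2 against P1, where 4.37% of all detected genes were. The count was 0 of 5 in P3 against P1 (3.55% of genes) and in P4 against P1 (3.05%). DNMT3A was the 1 member of 5 in P3 against P2 (3.14% of genes) and in P4 against P2 (3.13%), and 0 of 5 were counted in P4 against P3 (2.11%). With 5 members, a count of 0 or 1 says little beside these shares. By probe, the TET1 probe ILMN_1741056 was the 1 of 11 detected member probes past 2-fold in P2 against P1, where 4.15% of named probes were. The DNMT3B probe ILMN_1733929 was the 1 of 11 in P3 against P1 (3.45%) and in P4 against P1 (2.99%). The DNMT3A probe was the 1 of 11 in P3 against P2 (2.97%), and it and the same DNMT3B probe were the 2 of 12 in P4 against P2 (2.94%). In P4 against P3, 0 of 12 were counted (2.01%). Over the 5 members the median difference was 0.48 for P2, -0.18 for P3 and 0.24 for P4 (log2, against P1), beside 0.03, 0.02 and 0.03 over all detected genes. With members moving in opposite directions, these medians describe no common shift: 3 members were above 0 in P2, 2 in P3 and 3 in P4.

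**Figure D3:**
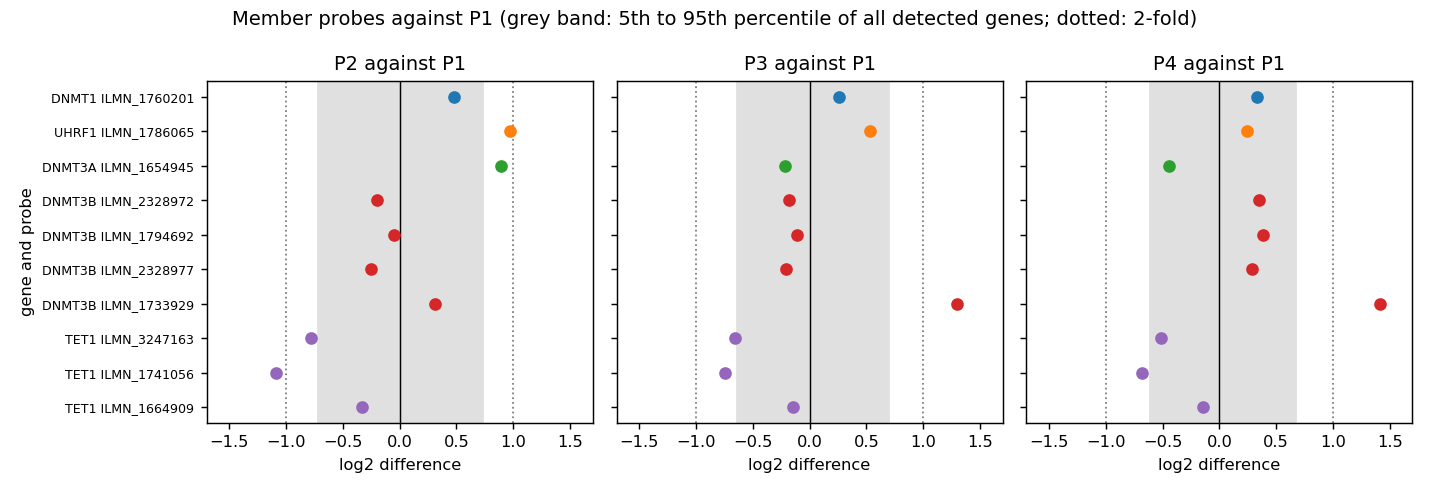
Log2 difference from P1 (horizontal axis) of the 10 member probes detected on all arrays, in P2, P3 and P4; each point is 1 probe, the grey band runs from the 5th to the 95th percentile of all detected genes and the dotted lines mark 2-fold. UHRF1, DNMT3A and 2 TET1 probes lie outside the band in P2, and the DNMT3B probe ILMN_1733929 lies beyond 2-fold in P3 and P4.

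A list of 9 genes that work with the maintenance enzymes had all 9 detected, with a median of 0.17 in P4 against P1. None was at least 2-fold different in any comparison, where 2.11% to 4.37% of all detected genes were. With 9 genes, such a count says little. The deacetylase HDAC1, a DNMT1 partner, read 3270 (P1), 5067 (P2), 5203 (P3) and 5391 (P4), 1.65-fold higher in P4 than in P1. That log2 difference of 0.72 lay past the 95th percentile of all detected genes (0.67). CDCA7, which brings the remodeller HELLS to chromatin, was 1.45-fold higher in P4 and USP7, a deubiquitinase that stabilises DNMT1, 1.21-fold, while PCNA was 1.23-fold lower. Among 13 genes that guide de novo methylation, 9 were detected, with a median of 0.03 in P4 against P1. In that pair 1 gene was past 2-fold, beside 3.05% of all detected genes. That gene was NSD1, which methylates histone H3 at a mark read by DNMT3A. It read 323 (P1), 267 (P2), 192 (P3) and 140 (P4), each group lower than the one before, a 2.30-fold difference between P1 and P4. The histone methyltransferase SUV39H1 was 1.52-fold higher, the corepressor TRIM28 1.17-fold higher and SUV39H2 1.15-fold lower. Of 7 readers of methylated CG sites, 5 had a probe and 4 were detected, all above 0 in P4, led by MBD1 at 1.48-fold and MBD2 at 1.36-fold; ZBTB4 (0.12) and ZBTB33 (0.05) were close to 0 on the log2 scale. The readers' medians were 0.24, 0.30 and 0.28 in P2, P3 and P4 against P1, over 4 genes and with the P1 array in each. Between later groups they were -0.08 (P3 against P2), 0.04 (P4 against P2) and 0.04 (P4 against P3).

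On the removal side, 16 genes of the excision repair that follows TET oxidation were detected in P4 against P1. Their median was 0.01 and none was past 2-fold, where 3.05% of all detected genes were. Against P1, 1 of 16 was past 2-fold in P2 (4.37% of all detected genes) and 2 of 15 in P3 (3.55%). GADD45G, a stress-induced gene, read 53.2 (P1), 111.6 (P2), 175.8 (P3) and 63.8 (P4), log2 differences of 1.07 in P2 and 1.72 in P3 against P1. Its relative GADD45A read 290.7 (P1), 177.3 (P2), 143 (P3) and 285.8 (P4), 2.03-fold lower in P3. Both were near their P1 level in P4. The glycosylase MBD4 read 8900 (P1), 7638 (P2), 6926 (P3) and 6435 (P4), lower in each later group, a 1.38-fold difference between P1 and P4. NEIL2, another glycosylase, was 1.28-fold lower, the polymerase POLB 1.20-fold lower and PARP1 1.23-fold higher. TET partners and genes that supply the TET cofactor had 11 of 13 members detected, 9 of them above 0 in each of P2, P3 and P4 against P1. Their medians were 0.33, 0.36 and 0.34 against 0.03, 0.02 and 0.03 over all detected genes. These comparisons share the P1 array and are not independent. Between later groups the list's medians were 0.10 (P3 against P2), 0.09 (P4 against P2) and -0.06 (P4 against P3). CXXC4, which binds TET2 and promotes its loss, read 184 (P1), 272 (P2), 381 (P3) and 309 (P4), and was 1.69-fold higher in P4. The isocitrate dehydrogenase subunits IDH3A and IDH3G were 1.46-fold and 1.38-fold higher, and D2HGDH, which clears a TET inhibitor, 1.38-fold. Against P1, the list's members past 2-fold were 1 of 11 in P2 (D2HGDH, 2.36-fold higher) and 1 of 11 in P3 (CXXC4, 2.07-fold higher). Over all detected genes the shares were 4.37% in P2 and 3.55% in P3. OGT, a sugar transferase bound to TET proteins, read 1238 (P1), 2225 (P2), 1817 (P3) and 1567 (P4), the same order of groups as UHRF1.

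The methyl donor comes from the methionine and folate cycle, and 12 of its 16 listed genes were detected, with medians of -0.06, -0.07 and -0.05 in P2, P3 and P4. MAT2A, which makes the donor S-adenosylmethionine, stood apart in P2: it read 2655 (P1), 5502 (P2), 2842 (P3) and 2972 (P4), 2.07-fold higher in P2 than in P1. The methionine synthase MTR was 1.60-fold lower in P4, SHMT1 1.26-fold higher and CBS 1.18-fold lower. AHCY, which removes the product that inhibits methyltransferases, lay between 9646 and 11315 on the 4 arrays.

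**Figure D4:**
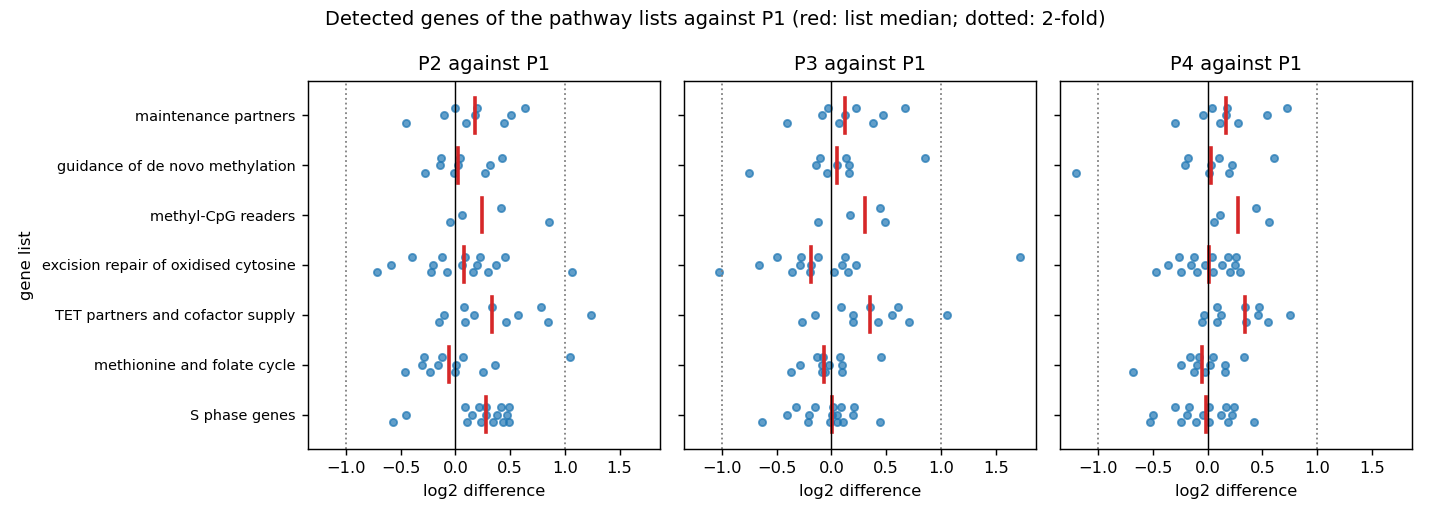
Log2 difference from P1 (horizontal axis) of each detected gene of 7 lists, in P2, P3 and P4; each point is 1 gene, red bars are list medians and dotted lines mark 2-fold. The medians are 0.33, 0.36 and 0.34 for TET partners, 0.24, 0.30 and 0.28 for methyl-CpG readers and 0.28, 0.01 and -0.01 for S phase genes.

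By the shape of the profile over the 4 arrays, the genes most like UHRF1 were SCLT1, PSMC3IP and DYNC2H1, at root mean square distances of 0.04, 0.04 and 0.05 on the centred log2 scale. For TET1 they were SAA4 (0.01), HEXIM2 (0.02) and BLTP3A (0.03), and for DNMT3A SYT6 (0.08), ACBD4 (0.12) and ACCS (0.13). Of the 10641 other genes detected on all arrays, 54 lay within 0.1 of UHRF1, 106 within 0.1 of TET1 and 1 within 0.1 of DNMT3A. Each profile has 4 points.

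Across the data set, 11322 to 11426 genes were detected per array. Of 9 embryonic stem cell markers, 8 had a probe and were detected on all arrays, with medians of -0.02 (P2), -0.11 (P3) and 0.07 (P4) against P1. PRDM14, a pluripotency factor that represses DNMT3B in mouse cells, read 285 (P1), 197 (P2), 187 (P3) and 358 (P4). DPPA4 was 1.57-fold and POU5F1 1.33-fold higher in P4 than in P1, and SALL4 was 1.43-fold lower. Of 11 fibroblast markers, 5 were detected, and the summed intensity of the list was 6387 (P1), 6903 (P2), 8344 (P3) and 10043 (P4). COL1A1 (2.03-fold), THY1 (1.58-fold), COL1A2 (1.56-fold) and S100A4 (1.42-fold) were higher in P4, while COL3A1, LUM, DCN, TWIST1, PDGFRA and POSTN were under the limit on all arrays. PDGFRB, the other detected marker, read 246 (P1), 250.7 (P2), 117.6 (P3) and 311.7 (P4), lowest in P3. THY1 made up the largest part of the sum in every group, at 3664.1 (P1), 4058.2 (P2), 5030.1 (P3) and 5796.5 (P4). The sum was highest in P4, the group with the highest DNMT3B, and its part in the passage differences was not tested. Of 12 markers of other lineages, FOXA2 in P3 (92.6) was the 1 value at or above the limit.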

How the data were processed

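Total RNA was extracted with Trizol, cleaned on columns with DNase I and labelled as biotinylated cRNA for Illumina bead arrays, per the labels' protocols. The deposited values are linear probe intensity values, 1 column per array. Background had been subtracted before deposit, since 25.2% to 25.4% of probes per array were below 0. The deposited medians (17.4 to 17.5) are nearly equal, so differences in total RNA output are hidden; the normalization method and software are not given in the sources used here. No detection p-values or bead errors were used, and the number of arrays limits the precision.

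The 4 arrays were quantile normalized in Python 3.11.15, floored at the 60th percentile (38.4), which also served as detection limit, and log2 transformed. Probes were named by the platform annotation: 30113 had 1 gene symbol, 8 several and 17202 none, and 30074 matched a current RefSeq entry. Y-linked and X-inactivation transcripts were left out. The brightest probe stood for a gene, counted where at least 1 of the 2 arrays was detected. The fold calculation was tested on simulated data. Named were all members, the up to 4 genes of each list that differed most between P4 and P1, the 3 closest profiles to the 3 members of largest range, and the 2 nearest detected neighbours of DNMT3B on each side. Genes named for other comparisons (MCM4, CDC45, OGT, AHCY, FOXA2, PDGFRB, GADD45G, GADD45A, DUSP15, the ends of the ranges around DNMT3B, and D2HGDH, CXXC4 and MAT2A in P2 or P3) and the germline and imprinted genes in those comparisons were picked after their values were seen. Members and lists were chosen with earlier results of these data known. Promoter windows are RefSeq's, GRCh38.p14.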

Additional observations from a re-analysis of the deposited data

How the results depend on the processing

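No paired analysis was possible because each passage group had 1 array. The counts of members past 2-fold were recomputed with the values as deposited, median centring, the limit at the 50th or 75th percentile, an offset of 50, the mean of all detected probes and no filter on dim genes. In P3 against P2 and in P4 against P2 the count went from 1 to 0 with the limit at the 75th percentile, where DNMT3A was no longer detected, with the offset, and with the mean of probes, which averages in a second DNMT3A probe that sits at the floor on 3 arrays. With that mean, DNMT3A differed by -0.55 in P3 and -0.51 in P4 against P2, and the UHRF1 difference of P2 against P1 was 0.56 in place of 0.97. The second UHRF1 probe, under the limit in P1, enters that mean at the floor there. The other 4 counts stayed at 0 in all settings. Of 42 recomputed medians, 2 moved by more than the spread over all genes of that pair, which was 0.23 to 0.37 on the log2 scale. It compares 2 passage groups and is no measure of variation between replicates. The P2 against P1 median was 0 without the filter, where undetected genes sit at the floor. The P3 against P1 median went from -0.18 to 0.20 with the mean of probes, which is the value of DNMT3B once ILMN_1733929 enters. Of 174 recomputed member differences, 9 moved by more than that spread, all with the mean of probes or the offset, and 2 changed sign, neither larger than 0.23 before. No setting shifted the median of all genes by over 0.03. DNMT3L and TET2, under the limit on all arrays, gave no passage difference, and those of DNMT3A rest on values near the limit.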

Other observations

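Of 19 germline genes that methylation is known to hold silent, 12 were under the limit on all 4 arrays, among them DDX4, MAEL, SYCP3 and the cancer-testis antigen genes MAGEA1 and MAGEA3. CTCFL, a germline relative of the insulator protein CTCF, read 320.5 (P1), 84.1 (P2), 47.2 (P3) and 113.8 (P4). TDRD1, a partner of the piRNA pathway, read 2161 (P1), 1742 (P2), 1647 (P3) and 1404 (P4), lower in each later group. DAZL, an RNA-binding protein of germ cells, was at 258 in P2 and between 85.6 and 111 elsewhere, and MAGEA4 was at 613 in P3 and at most 48.7 elsewhere. SOHLH2 (113.4 in P4 and 93.6 in P1) and PIWIL2 (56.4 in P4 and 42.7 in P1) differed little in P4 against P1. The median of the detected germline genes was -0.22 in P2, -0.38 in P3 and 0.02 in P4 against P1, over 6, 7 and 6 genes, of which 5, 5 and 3 were below 0. Over all detected genes the medians were 0.03, 0.02 and 0.03.

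Imprinted genes are expressed from 1 parental copy under the control of DNA methylation, and of 20 listed, 16 were detected in P4 against P1. Their median was 0.20 and 1 was past 2-fold, beside 3.05% of all detected genes. In P2 against P1, 3 of 15 were past 2-fold (1 higher, 2 lower), beside 4.37% of all detected genes. In P3 against P1 it was 1 of 15 (lower), beside 3.55%. CDKN1C, a cell cycle inhibitor, read 156.3 in P2 and between 328.2 and 414.4 elsewhere, 2.10-fold lower in P2 than in P1. PEG3 read 269.1 in P4 and was under the limit in the 3 other groups, and NNAT was at 52.5 in P2 against 1569.5 to 3871.8 elsewhere. NDN was at 41.5 in P3 against 2483.3 to 2914.9 elsewhere. DLK1 was at 135.6 in P2 and between 40.1 and 74.6 elsewhere, and MAGEL2 was at 174.1 in P1 and 246.5 in P4, a log2 difference of 0.50. H19, MEG3, PLAGL1 and ZIM2 were under the limit on all arrays. Each such value is a single array's, and no methylation was measured in these samples.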
